A study of Mus musculus with 6 samples.

Results

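The Fanconi anaemia pathway was followed through 10 of the 23337 genes listed in RNA-seq counts of mouse outer hair cells, which amplify sound in the cochlea by changing length. Brip1 and 9 partner genes (Fanca, Fancc, Fancd2, Fance, Fancg, Fanci, Palb2, Brca1 and Brca2) were read by symbol, and all 10 were found. The set was chosen by the difference of Brip1 between genotypes in these same libraries. Its values are therefore a description with no test, and the question was whether the partners showed the same difference. The cells were sorted at E18.5 from the organ of Corti as positive for Insm1-GFP-Cre, an allele that both groups carry, and the groups are Insm1-Het (3 libraries) and Insm1-KO (3 libraries). Insm1 encodes a zinc-finger repressor of nascent outer hair cells. The labels do not give the number of animals or pools behind a library, their litters, or which part of Insm1 is lost, so p-values cover no more than the spread among these samples, and that spread may be technical.

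The Fanconi anaemia pathway repairs crosslinks between DNA strands and protects stalled replication forks. A core complex, in which FANCA, FANCG, FANCC and FANCE are subunits, attaches ubiquitin to the FANCD2 and FANCI pair, and downstream proteins such as BRCA1, PALB2, BRCA2 and the helicase BRIP1 (also called FANCJ) carry the repair on by homologous recombination. Most of these genes are known for expression in dividing cells, while hair cells have left the cell cycle by this stage. Brip1 is also known as a transcript of inner hair cells, the other sensory cell type of the cochlea.

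Depth differed by genotype. Total counts ran from 10721902 to 12427039 for Het and from 7705177 to 9748629 for KO, without overlap. A gene near 0 was therefore less likely to be counted in a KO library. Insm1 itself was at 69.2 to 116.2 CPM (counts scaled to a common library total as described under the processing) in the Het and 18.7 to 78.7 CPM in the KO libraries, so the genotypes overlapped and its level checks the labels only in part. The 10 markers of hair cells were counted in every library and summed to 10570 to 11060 CPM for Het against 10650 to 12930 CPM for KO. Myo6 was the largest of them, at 4869 to 5210 CPM for Het against 4849 to 5174 CPM for KO. Single markers went both ways. Atoh1 was higher in every KO library, at 411.2 to 449.6 against 560.2 to 871.4 CPM. Lower in every KO library were Gfi1 (179.1 to 189.7 against 113.7 to 172.5 CPM) and Lhx3 (95.25 to 127.3 against 61.61 to 81.39 CPM). The other hair cell markers overlapped. Markers of other cells were counted too. The supporting cell list summed to 1980 to 2772 CPM for Het against 2324 to 3430 CPM for KO (10 of 11 genes counted in all libraries), the neuronal list to 1316 to 1477 and 1348 to 2079 CPM (5 of 8), the mesenchymal list to 238.4 to 425.2 and 224.6 to 334.9 CPM (2 of 8), the glial list to 131.3 to 266.1 and 174.9 to 204.6 CPM (3 of 5), and the immune list to 87.4 to 120.9 and 39.6 to 136.0 CPM (1 of 6). The outer hair cell list, which holds Insm1, summed to 676.6 to 818.9 and 635.2 to 694.9 CPM (6 of 7), and the endothelial list to 6.60 to 25.8 and 7.47 to 30.05 CPM (1 of 5). Most of the neuronal sum came from Nefm, Nefl and Gata3. Of these, Gata3 was higher in every KO library, at 332.2 to 409.8 CPM for Het against 423.7 to 782.2 CPM for KO. In contrast Tubb3, Neurod1 and Prph of that list reached at most 3.39, 1.98 and 5.71 CPM in any library. Most of the mesenchymal sum came from Pdgfra, at 225.3 to 349.1 CPM for Het against 175.3 to 334.3 CPM for KO. Most of the immune sum came from Laptm5, at 85.0 to 120.6 CPM for Het against 37.5 to 136.0 CPM for KO. In the same lists Twist1, a mesenchymal factor, and Csf1r, a macrophage receptor, had 0 counts in all 6 libraries. These sums overlapped between the genotypes. The erythroid sums, at 0.562 to 1.22 CPM for Het against 2.67 to 6.19 CPM for KO, were low and did not overlap: Hba-a1 and Hba-a2 had 0 counts throughout, the globin gene listed as Beta-s had 7, 6 and 6 against 51, 0 and 0 counts, and Alas2, of haem synthesis, had 8, 0 and 4 against 7, 38 and 24 counts. For all these lists, their part in the results on the Fanconi genes was not tested.

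Brip1 encodes an iron-sulfur DNA helicase that binds BRCA1. The gene lies on the minus strand of chromosome 11 from 86058138 to 86201193 (GRCm38) and has 7454 bases of exon, none of which overlap an exon of another gene in GENCODE M21. It had 6, 0 and 75 counts in Het replicates 1, 2 and 3 and 719, 675 and 3788 counts in KO replicates 1, 2 and 3. Scaled, these were 0.489, 0 and 5.93 CPM for Het against 76.8, 88.0 and 421.5 CPM for KO. Every KO library lay above every Het library, and the lowest KO value was 12.95 times the highest Het value. The 3 KO libraries were not alike: replicate 3 was 5.12 times the mean of the other two and held 71.1% of the summed level over all 6 libraries. The means of 2.14 ± 3.29 CPM for Het against 195.5 ± 195.9 CPM for KO (SD, n = 3) stood in a ratio of 91.4, and the log2 fold change was 6.49 (SE 1.16). It was 5.26 without KO replicate 3 and 9.52 without Het replicate 3, the Het library with most of the Brip1 counts. Of the 11714 tested genes, 7 had a larger log2 fold change upward and 19 had one at least as large downward. Among the inner hair cell markers Fgf8, Slc17a8, Tbx2, Nhlh1, Rprm and Cabp2, 3 were counted in all 6 libraries, and the list summed to 719.6, 523.5 and 512.2 CPM for Het against 586.7, 898.0 and 640.9 CPM for KO, with overlap. Rprm, at 232.9, 189.1 and 206.8 CPM for Het against 323.5, 512.2 and 282.3 CPM for KO, and Tbx2, which neighbours Brip1, were higher in every KO than in every Het library. The same held for 5.08% of all tested genes. Nhlh1, the most abundant of the list in Het libraries, was at 486.0, 334.3 and 303.6 CPM for Het against 246.4, 366.6 and 348.9 CPM for KO, with overlap. The outer hair cell list went both ways. Ocm was higher in every KO library, with 0, 0 and 0 counts for Het against 15, 22 and 33 for KO. Strip2, listed as Fam40b, was lower in every KO library, at 331.7, 243.9 and 270.1 CPM for Het against 213.3, 190.8 and 200.6 CPM for KO. Such a lower level held for 6.1% of all tested genes. In the other genes of that list the genotypes overlapped. Fgf8, a signal from inner hair cells, had 0 counts in the Het libraries against 87, 0 and 42 counts for KO, and Slc17a8, their vesicular glutamate transporter, had 6, 0 and 15 against 18, 0 and 0 counts. The part of these markers in the difference of Brip1 was not tested. In a sorted population, a change in the number of cells of a type and a change of RNA per cell cannot be told apart.

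**Figure D1:**
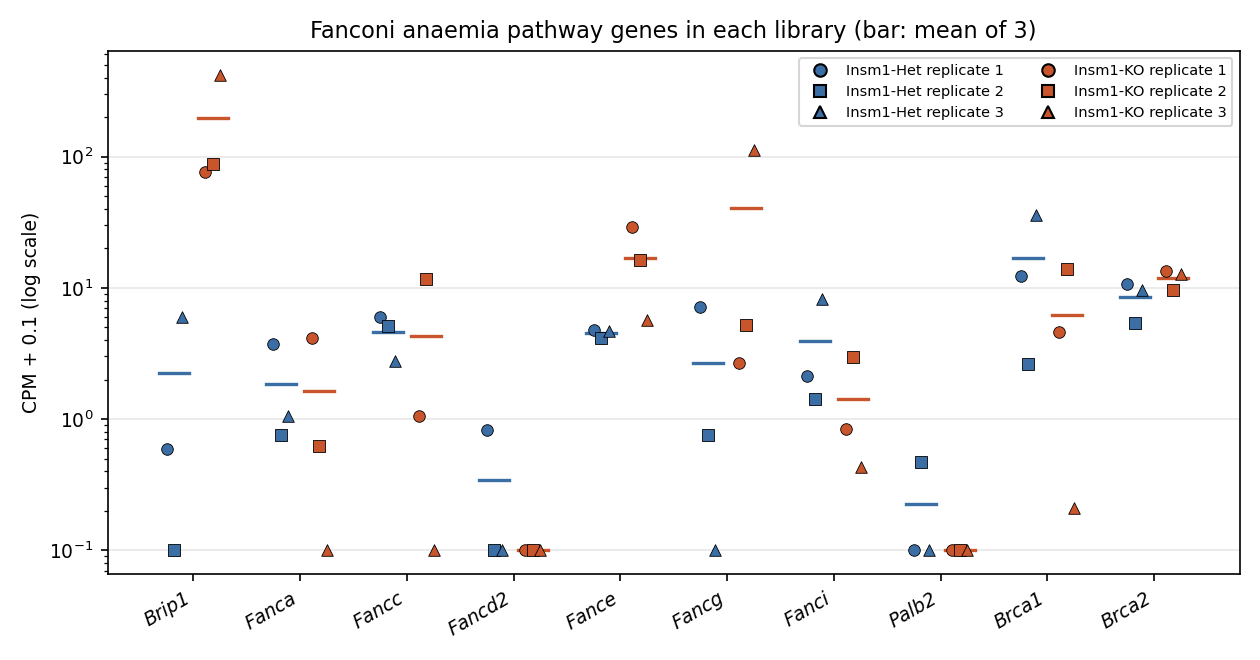
CPM of the 10 genes in each library, on a log axis after adding 0.1, with Het libraries in blue, KO libraries in orange, 1 marker shape per replicate number and a bar at each mean of 3. Brip1 sits between 76.8 and 421.5 CPM in the KO libraries and at 5.93 CPM or less in the Het libraries, while most other genes overlap between genotypes and points at the bottom are 0 counts.

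The stretch upstream of the RefSeq start of Brip1 is shown because Brip1 is the gene of this pathway with the large difference, and that of Brca2 because Brca2 varied least between libraries of a genotype. Both are the 250 bases before the start on GRCm38.p6, 5′ to 3′ on the gene's strand, from chr11:86201194-86201443 (minus strand) for Brip1 and chr5:150522371-150522620 (plus strand) for Brca2. Capitals mark matches to 4 motifs searched on both strands: the CCAAT box (CCAAT), E2F sites (TTTCGCGC, TTTGGCGC, TTTCCCGC or TTTGCCGC), the cell cycle element CHR (TTTGAA) and a G-rich pattern of the kind bound by INSM1 (TGNNNGGGG).
Brip1: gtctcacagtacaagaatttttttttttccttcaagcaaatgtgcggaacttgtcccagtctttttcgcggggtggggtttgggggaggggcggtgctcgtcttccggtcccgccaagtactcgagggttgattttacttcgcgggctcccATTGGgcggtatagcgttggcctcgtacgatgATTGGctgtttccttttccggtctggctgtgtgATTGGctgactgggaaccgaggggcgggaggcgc
Brca2: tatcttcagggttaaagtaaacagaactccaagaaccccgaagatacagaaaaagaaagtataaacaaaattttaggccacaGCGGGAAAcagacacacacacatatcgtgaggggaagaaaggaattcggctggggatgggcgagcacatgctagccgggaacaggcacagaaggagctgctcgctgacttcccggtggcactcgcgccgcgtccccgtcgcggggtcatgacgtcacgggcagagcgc
Brip1 holds 3 CCAAT boxes, all on the reverse strand and none overlapping, and no match to the other 3 motifs. Brca2 holds 1 E2F match. RefSeq windows were found for 9 of the 10 genes. A CCAAT box was present in 5 of these 9 (Brip1, Fanca, Fancc, Fance and Brca1) and in 33.8% of all 32851 windows of this length. E2F matches were present in 2 of 9 (Fancg and Brca2) against 1.86% of all windows, the INSM1-type pattern in 1 of 9 (Brca1) against 23.2%, and the CHR in 0 of 9 against 16.0%. A match is a description of letters and not a binding site.

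Of the core complex genes, Fanca and Fancc were low in all 6 libraries. Fanca (chromosome 8, 123268300 to 123318576) had 45, 7 and 12 counts for Het against 38, 4 and 0 counts for KO, or 1.76 ± 1.66 against 1.53 ± 2.21 CPM (SD, n = 3). It did not pass the filter on low counts and was not tested, and 10.5% of its exon length overlaps Zfp276 on the other strand, whose reads cannot be told apart where the strand setting is not known. Fancc (chromosome 13, 63285043 to 63497278) was at 5.86, 5.06 and 2.69 CPM for Het against 0.961, 11.6 and 0 CPM for KO. The KO values lay on both sides of the Het values, and the log2 fold change was -0.12 (95% interval -3.71 to 3.48). It was positive without Het replicate 1 (0.10), KO replicate 1 (0.35) or KO replicate 3 (0.47), and -3.20 without KO replicate 2. Of the exon length of Fancc, 16.4% overlaps the antisense gene Gm16133 and 2.21% overlaps 2010111I01Rik, both on the other strand. Its low counts are uncertain to that extent.

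Fance, which links the core complex to FANCD2, was the 1 partner gene whose genotypes did not overlap. It lies on chromosome 17 from 28313519 to 28326572 and was at 4.64, 4.03 and 4.58 CPM for Het against 28.7, 16.2 and 5.56 CPM for KO. The Het libraries were nearly alike, while KO replicate 3 was barely above them and KO replicate 1 was the highest. The means were 4.42 ± 0.340 and 16.8 ± 11.6 CPM (SD, n = 3), for a log2 fold change of 1.93 (95% interval -0.22 to 4.07; adjusted p = 0.938 by edgeR's quasi-likelihood F test, Benjamini-Hochberg adjusted). All 3 KO libraries lay above all 3 Het libraries in 5.08% of the tested genes, and the reverse held in 6.1%. With only 6 tested partners, 1 such gene is too few to be set against that share. Leaving out libraries in turn gave Fance values from 1.29 (without KO replicate 1) to 2.35 (without KO replicate 3) on the log2 scale.

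Fancg, another core subunit (chromosome 4, 43002343 to 43010506), had its level in a single library. It had 87, 7 and 0 counts for Het against 24, 39 and 1016 counts for KO, and KO replicate 3 at 113.1 CPM held 88.0% of the summed level. The other KO libraries, at 2.56 and 5.09 CPM, lay within the Het range of 0 to 7.09 CPM. The log2 fold change was 3.95 (95% interval 0.49 to 7.42). Leaving out KO replicate 3 gave 0.57 and leaving out Het replicate 1 gave 6.94. It did not pass over all genes (adjusted p = 0.92 by edgeR's quasi-likelihood F test, Benjamini-Hochberg adjusted), and DESeq2 gave it no p-value. With no filter on low counts it did pass the same edgeR test (adjusted p = 0.0115 with Benjamini-Hochberg adjustment; the other alternatives ran from 0.555 to 1).

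The FANCD2 and FANCI pair, the substrate of the core complex, was close to the limit of detection. Fancd2 (chromosome 6, 113531682 to 113597017) had 9 counts in Het replicate 1 and 0 in the other 5 libraries, and 0 counts over the KO group allow up to 0.115 CPM. Fanci (chromosome 7, 79391929 to 79450264) was at 2.04, 1.31 and 8.14 CPM for Het against 0.747, 2.87 and 0.334 CPM for KO, with a log2 fold change of -1.54 (95% interval -5.10 to 2.03). Its highest value was in Het replicate 3, and the groups overlapped. The log2 fold change of Fanci was -0.35 without that library and -2.79 without KO replicate 2. Of the exon length of Fanci, 16.0% overlaps the mitochondrial polymerase gene Polg on the other strand, so its low counts are uncertain to that extent.

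The recombination partners of BRIP1 gave no common direction. Palb2, the bridge between BRCA1 and BRCA2 (chromosome 7, 122107262 to 122132985), had 4 counts in Het replicate 2 and 0 in the other 5 libraries. Brca1, to which BRIP1 binds directly (chromosome 11, 101488764 to 101551955), was at 12.3, 2.53 and 35.5 CPM for Het against 4.48, 13.7 and 0.111 CPM for KO. Thus KO replicate 3, the library with most Brip1, had 1 count of Brca1. The log2 fold change of Brca1 was -1.46 (95% interval -4.30 to 1.38), and it was -0.29 without Het replicate 3 and -2.86 without KO replicate 2. Brca2, which acts in homologous recombination (chromosome 5, 150522630 to 150570329), was the steadiest gene of the set, at 10.5, 5.34 and 9.48 CPM for Het against 13.2, 9.52 and 12.7 CPM for KO. Its log2 fold change was 0.48 (95% interval -1.53 to 2.50), and KO replicate 2 lay below Het replicate 1.

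Over the set, 7 of the 10 genes passed the filter, Brip1 among them, and Fanca, Fancd2 and Palb2 did not. Of the 6 tested partners, 0 passed edgeR's quasi-likelihood test after Benjamini-Hochberg adjustment over all 11714 tested genes, as did 0% of all tested genes. At an unadjusted p under 0.05 there was 1 (Fancg), where 5.34% of all tested genes had such a p. DESeq2, which gave Fancg no p-value, passed 0 of the other partners against 0.224% of the genes for which it gave an adjusted p. By limma-voom 0 of the 6 passed, against 0% of all tested genes. The log2 fold changes of the 6 were above 0 in 3 and below 0 in 3, from -1.54 to 3.95 with a median of 0.18, beside a median of 0.02 over all tested genes. Without KO replicate 2 the median of the 6 was -1.08. The intervals were wide, and whether any partner differed from Brip1 in its fold change was not tested.

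**Figure D2:**
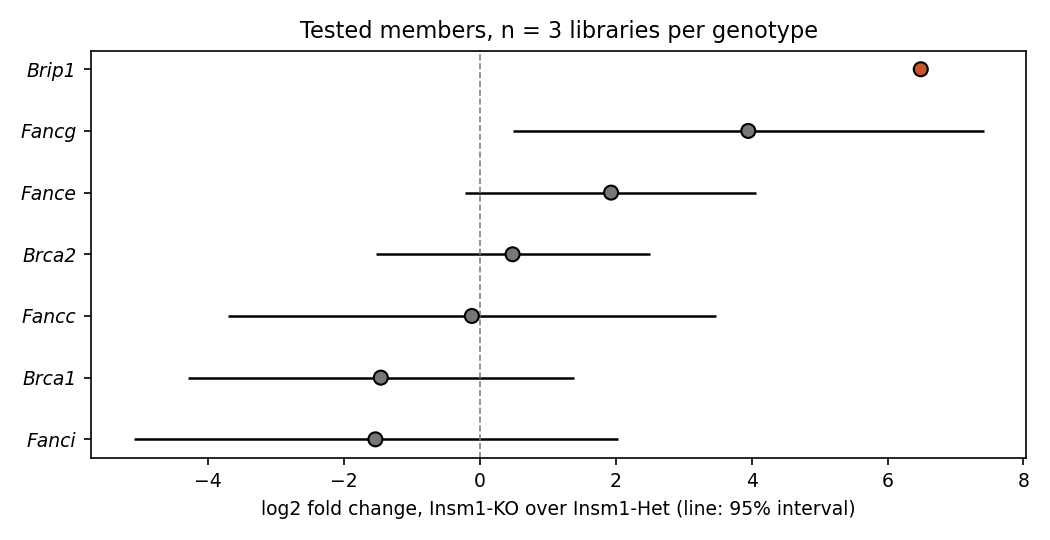
Log2 fold change of KO over Het for the 7 tested genes, with 95% intervals from the fit across all genes and n = 3 libraries per genotype; Brip1, in orange, is drawn without an interval because the set was chosen by its difference. Brip1 is at 6.49 and Fancg at 3.95, and the other 5 lie between -1.54 and 1.93 with intervals that include 0.

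Per kilobase of exon, the order of the genes also differed between genotypes. In Het libraries the highest was Brca1 at 1.97 CPM per kb, followed by Fance at 1.38, Fancg at 0.680, Fanci at 0.663, Brca2 at 0.619, Fancc at 0.543, Brip1 at 0.287 and Fanca at 0.200 CPM per kb. In KO libraries Brip1 was at 26.2, Fancg at 10.6, Fance at 5.27, Brca2 at 0.866, Brca1 at 0.715, Fancc at 0.501, Fanci at 0.228 and Fanca at 0.174 CPM per kb. Fancd2 and Palb2 came last in both. Genes next to each other in these orders overlapped in their range over the 3 libraries of a genotype, except for Fance and Brca2 in KO, at 1.74 to 8.998 against 0.698 to 0.970 CPM per kb. The spread itself was large: the within-genotype SD of log2 CPM was 2.75 in Fancg, 2.40 in Brca1, 2.14 in Fancc, 2.02 in Brip1, 1.29 in Fanci, 0.84 in Fance and 0.40 in Brca2, beside a median of 0.73 over all tested genes.

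In likeness to Brip1 over the 6 libraries, taken as Pearson's r of log2 CPM, the partners fell on both sides of 0. The values were 0.76 for Brca2, 0.58 for Fance, 0.57 for Fancg, -0.37 for Fanci, -0.38 for Brca1 and -0.59 for Fancc. These describe 6 libraries that share 2 genotypes and differ in depth. Of all tested genes, the 5 most like Brip1 were Ppp1r9b, the spine scaffold spinophilin (r = 0.983), Cmtm8, a membrane protein (r = 0.982), Rpl35, a ribosomal protein (r = 0.98), 5031425E22Rik (r = 0.979) and Arhgef6 (r = 0.978). None of them is in the repair lists. Their sizes differed widely from that of Brip1: Cmtm8 was at 4.77 ± 7.16 CPM for Het against 58.5 ± 43.3 CPM for KO (SD, n = 3), for a log2 fold change of 3.61, while Rpl35 had 0.29.

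The genes around Brip1 were measured as well. In the files 11 other genes lie within 500 kb of it. Tbx2, a T-box factor of inner hair cells 216.0 kb from the end of Brip1, was at 0.163, 0.0937 and 0.632 CPM for Het against 4.06, 19.2 and 5.01 CPM for KO, higher in every KO than in every Het library (log2 fold change 4.92, SE 1.62; adjusted p = 0.918 by edgeR's quasi-likelihood F test, Benjamini-Hochberg adjusted). The library with most Tbx2 was KO replicate 2 and that with most Brip1 was KO replicate 3. Tbx4, which lies between them, had 0 counts in all 6 libraries. Ints2, a subunit of the Integrator complex whose 3′ end lies 9.49 kb from the start of Brip1, was at 69.8, 70.4 and 48.5 CPM for Het against 122.9, 52.3 and 58.0 CPM for KO, a log2 fold change of 0.31 (SE 0.44). Med13, a Mediator subunit, was at 770.0 ± 48.2 and 979.0 ± 221.7 CPM (SD, n = 3) without overlap of the genotypes, a log2 fold change of 0.35 (SE 0.20). The other 7 tested neighbours (Bcas3, Rnft1, Rps6kb1, Tubd1, Vmp1, Ptrh2 and Cltc) had log2 fold changes from -1.35 in Tubd1 to 0.72 in Rnft1, and in all 7 the genotypes overlapped. Of the 10 tested neighbours, 0 passed edgeR's quasi-likelihood F test, Benjamini-Hochberg adjusted, DESeq2 or limma-voom. Of all genes given an adjusted p, 0%, 0.224% and 0% passed these. Among the neighbours 1 (Tbx2) had an unadjusted edgeR p under 0.05, beside 5.34% of all tested genes. All 3 KO libraries lay above all 3 Het libraries in Tbx2 and Med13, beside 5.08% of all tested genes.

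**Figure D3:**
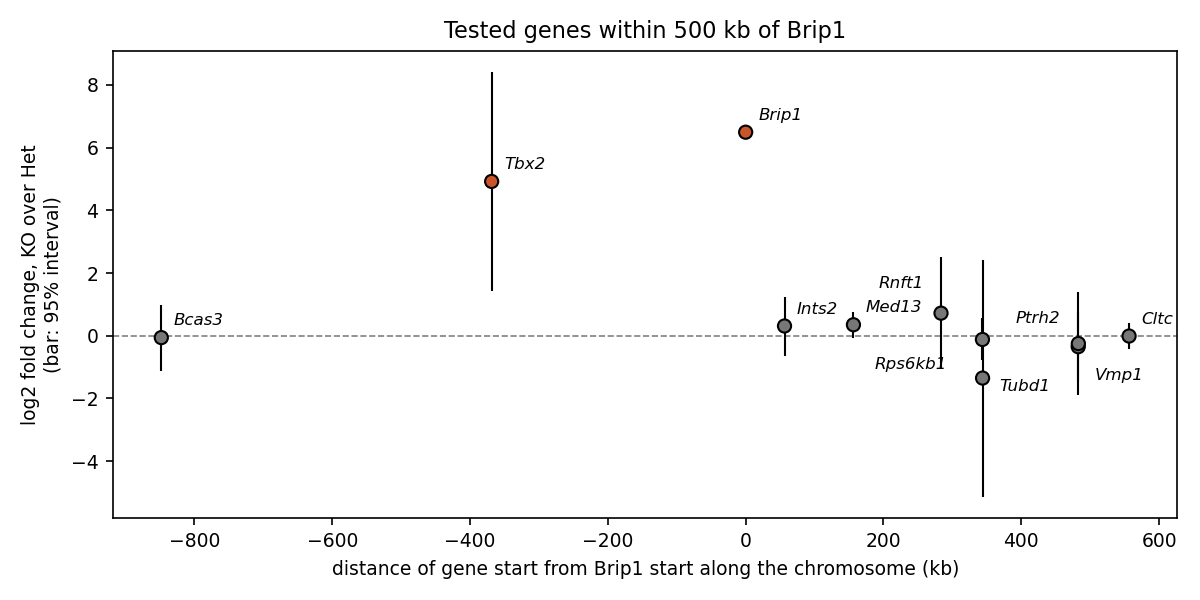
Log2 fold change of KO over Het, with 95% intervals except for Brip1, against the distance in kb of each gene's start from the start of Brip1, for tested genes whose span comes within 500 kb of Brip1. Brip1 at 6.49 and Tbx2 at 4.92, in orange, stand above the other genes, which lie between -1.35 and 0.72.

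Beyond the 10 genes, 117 further genes of 6 lists were read: the core complex and its accessory proteins, the regulators of FANCD2 and FANCI, homologous recombination, iron-sulfur helicases and cluster assembly, damage checkpoint kinases, and cell division. Of these, 85 were tested and 0 passed edgeR's quasi-likelihood F test, Benjamini-Hochberg adjusted. At an unadjusted p under 0.05 there were 7, or 8.24%, beside 5.34% of all tested genes. Of the 7, 4 were higher and 3 lower in KO libraries. The median log2 fold change of the 85 was 0.00, with 42 genes above and 43 below 0. All KO libraries lay above all Het libraries in 4.71% of the 85 and below them in 4.71%, close to the shares over all genes given above. DESeq2 passed 1, Xrcc3, beside 0.224% of the genes for which it gave an adjusted p. With limma-voom 0 passed, beside 0% of all tested genes.

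Xrcc3, a gene of homologous recombination, came nearest to the pattern of Brip1 in size. It had 4, 0 and 0 counts for Het against 187, 8 and 274 counts for KO, or 0.109 ± 0.188 against 17.2 ± 14.9 CPM (SD, n = 3). Each KO library lay above each Het library, but KO replicate 2 did so with 8 counts. Its adjusted p was 0.0026 by DESeq2 and 0.896 by edgeR's quasi-likelihood test, both with Benjamini-Hochberg adjustment. In the same list Rpa1, a subunit of the protein that coats single-stranded DNA, was at 57.4 ± 8.30 CPM for Het against 23.5 ± 6.99 CPM for KO without overlap (log2 fold change -1.29, SE 0.51). The most abundant genes of the list after Brip1, Rad50 of the break-binding MRN complex and the deubiquitinase Brcc3, were at 61.7 ± 15.4 against 56.1 ± 19.1 CPM and at 51.1 ± 38.2 against 56.4 ± 17.8 CPM. Of 24 tested genes in this list, with Brca1 and Brca2 counted and Brip1 left out, 10 were above and 14 below 0, with a median of -0.18.

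The core complex list had 10 tested genes, with Fancc, Fance and Fancg counted, of which 7 were above 0 (median 0.82). Of all 11714 tested genes, 5957 were above 0. Fancm, the DNA translocase that recruits the complex, was at 24.0, 22.4 and 33.6 CPM for Het against 26.7, 65.0 and 72.1 CPM for KO (log2 fold change 1.03, SE 0.55). The genotypes overlapped through KO replicate 1. Stra13, an older name of the FANCM partner gene Cenpx, had 15, 6 and 12 counts for Het against 97, 56 and 63 counts for KO, or 0.911 ± 0.331 against 8.22 ± 1.85 CPM, without overlap (log2 fold change 3.16, SE 1.39). That name has also been used for Bhlhe40 and Laptm5, which the files list under their own symbols. Faap20, listed as 2610002J02Rik, was at 23.8 ± 13.7 and 15.3 ± 6.80 CPM. The list sums were 87.4 to 115.0 CPM for Het against 139.4 to 259.3 CPM for KO and did not overlap, with Fancg alone giving 113.1 CPM of the highest sum.

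The list of FANCD2 and FANCI regulators and nucleases had 12 tested genes, with Fanci counted. Of these, 5 were above and 7 below 0 (median -0.25). Ercc4, a nuclease that unhooks crosslinks, was at 12.3, 6.65 and 9.72 CPM for Het against 11.0, 22.6 and 84.9 CPM for KO (log2 fold change 2.05, SE 0.81). As with Brip1 and Fancg, the highest value was in KO replicate 3. Fan1, the FANCD2-associated nuclease, was at 4.48, 29.8 and 7.11 CPM for Het against 2.88, 3.91 and 0 CPM for KO. The abundant Rev3l, the catalytic subunit of a translesion polymerase, was at 337.3 ± 73.2 and 444.3 ± 209.1 CPM, and Wdr48, the activator of the deubiquitinase USP1, at 87.6 ± 15.1 and 118.1 ± 26.4 CPM (SD, n = 3).

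The iron-sulfur list held helicases related to BRIP1 and the proteins that insert their cluster. With Brip1 left out, 10 genes were tested, of which 8 were above 0, with a median of 0.27. Ddx11, a helicase of sister chromatid cohesion, was at 1.06, 1.59 and 14.9 CPM for Het against 40.6, 9.91 and 55.5 CPM for KO (log2 fold change 2.59, SE 1.05), and Het replicate 3 lay above KO replicate 2. Nubp1, a scaffold of cluster assembly, was at 2.26 ± 0.942 and 10.2 ± 5.18 CPM without overlap. Ciao1 and Ciapin1, which also serve cluster assembly and were the most abundant of the list after Brip1, were at 43.8 ± 10.3 against 44.3 ± 24.1 CPM and at 30.03 ± 2.79 against 30.6 ± 19.4 CPM.

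The checkpoint list (13 tested, 8 above and 5 below 0, median 0.08) had 0 genes at an unadjusted p under 0.05, beside 5.34% of all tested genes. Its most abundant genes were the kinases Tlk1, at 270.3 ± 27.4 CPM for Het against 286.6 ± 49.9 CPM for KO, and Tlk2, at 184.4 ± 8.47 and 186.9 ± 52.1 CPM (SD, n = 3). Mdc1, a damage mediator with the smallest p of the list, was at 41.1 ± 29.1 and 69.4 ± 26.5 CPM, and Rad9a, listed as Rad9, at 2.57 ± 3.21 and 11.1 ± 10.7 CPM.

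Genes of cell division were low and lay on both sides of 0. Of 40 in the files, 22 were tested, 7 above and 15 below 0, with a median of -0.40. Their summed level was 471.1, 357.1 and 297.5 CPM for Het against 328.2, 319.3 and 341.3 CPM for KO, so the KO sums lay within the Het range. The proliferation marker Mki67 was at 0.407, 8.71 and 0.0790 CPM for Het against 1.39, 0 and 0 CPM for KO. KO replicate 3, with 421.5 CPM of Brip1, held 0 counts of Mki67, and likewise of Rrm2 and Ccne1 among others. The list did not go one way in that library. Mcm6, Birc5, Cdt1, Plk1 and Aurkb had their highest level there, with 688, 80, 41, 24 and 5 counts. Mki67 and these other examples were picked with the counts already known. Mcm7, a subunit of the replication helicase, was at 15.1, 21.4 and 11.0 CPM for Het against 52.3, 28.4 and 34.4 CPM for KO (log2 fold change 1.28, SE 0.62), while its partner Mcm6 was at 42.1 ± 21.3 and 53.5 ± 20.1 CPM. Ezh2, a Polycomb methyltransferase, was at 56.7, 48.3 and 34.8 CPM for Het against 22.1, 22.2 and 4.45 CPM for KO (log2 fold change -1.52, SE 0.68). E2f2, the most abundant of the list, was at 69.1 ± 44.3 and 43.5 ± 26.2 CPM (SD, n = 3).

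**Figure D4:**
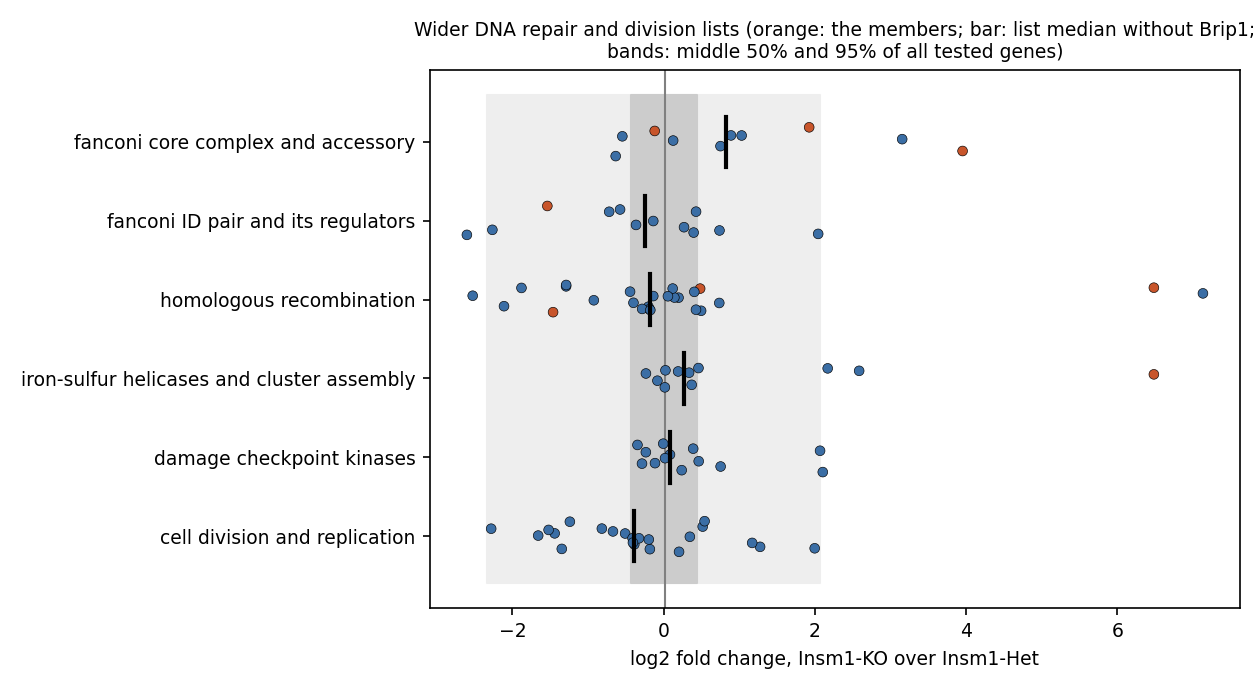
Log2 fold change of KO over Het for each tested gene of the 6 lists (orange for the 10 pathway genes, blue for the others, a black bar at each list median, taken without Brip1), over bands that hold the middle 50% (-0.42 to 0.44) and the middle 95% (-2.34 to 2.07) of all tested genes. List medians lie between -0.40 and 0.82, and Brip1 at 6.49 and Xrcc3 at 7.13 are the far points on the right.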

How the data were processed

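Each deposited file lists raw whole-number counts by gene symbol for a single library. Trimmomatic, STAR and HTSeq on GRCm38 (mm10) are named per the submitters' processing notes, while the strand setting, annotation and versions were not given in the sources used here. Per the labels' protocols, ribosomal RNA was removed and the complementary DNA was amplified.

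Genes were kept by filterByExpr (minimum count 10, minimum total 15), which left 11714 genes; those removed held 0.274% of counts. CPM are counts over the total of kept genes times its TMM factor. Genotypes were compared with edgeR 4.0.16's quasi-likelihood test (no term but genotype), Benjamini-Hochberg adjustment over all tested genes and a threshold of 0.05; SE is the fold change over the square root of F. DESeq2 1.42.0 and limma 3.58.1 (voom) were alternatives. Likeness used log2 CPM with a prior count of 2. A count of 0 over a group allows up to 3 counts, for counting error only, since amplified reads are not independent molecules. Positions and exon lengths came from GENCODE M21 and upstream sequences from RefSeq, GRCm38.p6. Members and lists were chosen with earlier results of these data known. The text names the 10 genes, the targeted gene, genes near Brip1 and the 5 genes most like it. Of each repair or division list it names the 2 most abundant and the 2 with the smallest p. Single cell type markers, Mki67 and the division genes given beside it were named outside this rule.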

Additional observations from a re-analysis of the deposited data

How the results depend on the processing

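Results were recomputed under 16 alternatives, of which 6 left out 1 library each. The log2 fold change of Brip1, 6.49, was 7.98 with limma-voom and ran from 5.26 to 9.52 with 1 library left out; it was above 0 in all 16. The number of genes called over all genes, 0, was 26 with DESeq2, 67 with no filter, 1 with the replicate block and 1 with the newer form of the quasi-likelihood fit, and 0 in the others. The 1 gene of the latter 2 fits was Brip1, which was also among the 67; since its difference chose the set, this is a description and no test of it. Of the partners, 1 (Fancg) was called with no filter, and of the wider genes 1 (Xrcc3) with DESeq2 and 1 (Xrcc3) with no filter, and none in the others. The log2 fold change of Fancc, -0.12, ran from -3.20 to 0.47 with 1 library left out. The median of the 6 partners, 0.18, was -0.56 with limma-voom, -0.50 with the replicate block and -1.08 to 0.46 with 1 library left out. The cause of these shifts was not tested. The filter at 5 CPM in 3 libraries left out Fanci, so that its value there could not be had.

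Same-numbered libraries deviated from their genotype means with correlations of 0.01, 0.01 and 0.01, so the numbers were not taken to pair them, and the replicate block, with a log2 fold change of Brip1 of 7.26, serves as an alternative alone. The alternative scalings moved the median of all genes to between -0.05 and 0.028 on the log2 scale. Depth was lower in every KO than in every Het library. Fancd2, Palb2 and Fanca had counts too low to test, with few counts in the deeper Het libraries as well. The part of depth in this was not tested.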
